A study of Homo sapiens with 29 samples.

Results

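The p38 mitogen-activated protein kinase pathway was followed through 10 genes: the activating kinases MAP2K6 and MAP2K3, the upstream kinase MAP3K5, the p38 kinases MAPK14, MAPK11, MAPK12 and MAPK13, the downstream kinases MAPKAPK2 and MAPKAPK3, and the phosphatase DUSP1. The set was chosen by the log2 fold change of MAP2K6, which was among the largest falls with CC-115 against Ctrl in C4-2 cells, and the other 9 were taken as named parts of its pathway. All 10 were found by gene symbol among the 63677 features of both count tables, and all 10 passed the filter on low counts in both cell lines. The series holds 29 RNA-seq libraries from 2 prostate cancer lines of human origin. C4-2 descends from LNCaP and grows despite castration, and 22RV1 was derived from a prostate cancer xenograft that relapsed after castration. C4-2 cells grown in hormone proficient media formed 8 groups of 3 libraries: Ctrl, NU7441, CC-115, CC-223, Enza, NU7441+Enza, CC-115+Enza and CC-223+Enza. The 22RV1 cells formed a Control group of 3 libraries and a CC-115 group of 2. Every agent was applied at 1 µM for 24 h, alone or combined, and the labels do not say what the Ctrl and Control cells received. NU7441 inhibits the DNA repair kinase DNA-PK, CC-115 is known to inhibit both DNA-PK and TOR kinase, CC-223 is a TOR kinase inhibitor, and Enza is enzalutamide, an antiandrogen. Each line is a single established culture, and nothing in the labels says whether replicates came from separate cultures, so that p-values measure the spread between these libraries, which may be technical.

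In the p38 pathway, stress signals and inflammatory cytokines activate kinases such as MAP3K5 (apoptosis signal-regulating kinase), which phosphorylate MAP2K3 and MAP2K6. These dual-specificity kinases in turn phosphorylate the p38 kinases on a threonine and a tyrosine of the activation loop. Active p38 phosphorylates MAPKAPK2 and MAPKAPK3, which act on RNA-binding and heat shock proteins, as well as several transcription factors, and DUSP1 removes the activating phosphates. RNA levels measure the abundance of these transcripts and not the activity of the kinases.

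The start regions of 3 of the genes are shown: MAP2K6, whose change chose the set, MAPK14, the other gene called as lower with CC-115 in 22RV1, and DUSP1, which rose most there. Windows from 250 bases before to 50 bases after an annotated start were taken from RefSeq on GRCh38.p14, which holds such windows for 9 of the 10 genes (13 windows, none matched for MAPKAPK2). Capitals mark matches, on either strand, to TGACGTCA (the cyclic AMP response element), TATAAA (the core of a TATA box), GGGCGG (GC box), CCAAT and CACGTG (E-box). MAP2K6 has 2 annotated starts, and counts per gene do not tell which of them was used.
MAP2K6 start 1, chr17:69414447-69414746, plus strand: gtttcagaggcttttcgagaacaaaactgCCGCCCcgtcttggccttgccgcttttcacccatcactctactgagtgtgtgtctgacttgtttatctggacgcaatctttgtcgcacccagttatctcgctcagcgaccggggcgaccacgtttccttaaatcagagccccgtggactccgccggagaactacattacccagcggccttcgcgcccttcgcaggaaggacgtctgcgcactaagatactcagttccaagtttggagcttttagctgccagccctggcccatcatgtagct
MAP2K6 start 2, chr17:69502012-69502311, plus strand: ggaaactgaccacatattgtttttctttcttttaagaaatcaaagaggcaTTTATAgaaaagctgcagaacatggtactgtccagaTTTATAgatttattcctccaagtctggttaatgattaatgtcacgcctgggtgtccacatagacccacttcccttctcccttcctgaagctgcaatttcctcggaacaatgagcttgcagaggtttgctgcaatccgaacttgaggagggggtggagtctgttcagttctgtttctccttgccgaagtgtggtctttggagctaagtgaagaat
MAPK14, chr6:36027558-36027857, plus strand: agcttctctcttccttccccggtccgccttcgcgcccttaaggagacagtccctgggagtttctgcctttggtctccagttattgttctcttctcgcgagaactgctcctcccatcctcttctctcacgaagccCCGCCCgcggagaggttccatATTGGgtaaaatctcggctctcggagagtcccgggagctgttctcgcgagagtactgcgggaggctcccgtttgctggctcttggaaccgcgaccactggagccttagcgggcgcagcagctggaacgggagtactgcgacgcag
DUSP1, chr5:172771146-172771445, minus strand: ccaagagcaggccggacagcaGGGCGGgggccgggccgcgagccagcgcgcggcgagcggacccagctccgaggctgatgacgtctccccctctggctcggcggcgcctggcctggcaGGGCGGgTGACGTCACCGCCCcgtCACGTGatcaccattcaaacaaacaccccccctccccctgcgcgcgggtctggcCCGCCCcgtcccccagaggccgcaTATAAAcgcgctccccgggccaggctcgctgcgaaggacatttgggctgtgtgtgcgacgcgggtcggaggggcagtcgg
The MAP2K6 windows had the lowest shares of G and C among the 13 (55.0% for the first start and 43.3% for the second), against 60.3% to 84.0% for the other windows and a median of 58.7% over all RefSeq windows of this length. The first MAP2K6 start held 1 GC box, and the second held 2 TATA matches. The MAPK14 window held 1 GC box and 1 CCAAT match. The DUSP1 window held the only cyclic AMP response element of the 13 windows, directly followed by a GC box, along with 1 TATA match, 1 E-box and 4 GC boxes in all. Of 35116 windows of this length, 1.8% held TGACGTCA, 11.5% TATAAA, 45.0% GGGCGG, 34.6% CCAAT and 7.3% CACGTG, on either strand. A GC box was found in 11 of the 13 windows and an E-box in 3.

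Total counts lay between 29.58 M and 44.86 M in the C4-2 libraries and between 31.61 M and 44.91 M in those of 22RV1. Enza replicate 1 and CC-115+Enza replicate 1 stood apart from the rest of their groups, with root mean square log2 deviations of 0.518 and 0.53 across features against at most 0.33 for any other C4-2 library, and results that rest on them are given with and without them. In 22RV1, Control replicate 3 and CC-115 replicate 2 were shallower (31.61 M and 31.77 M counts) than the others, and small RNA took 15.9% to 17.26% of the counts with CC-115 against 10.9% to 11.91% in Control. The 22RV1 CC-115 libraries also differed from each other by a root mean square of 0.452, against deviations of 0.198 to 0.374 in Control. Every result with CC-115 in 22RV1 rests on this pair. CPM are reads of a gene per M counted reads. For single genes the totals were scaled by TMM, and for summed markers they were not, so single genes and sums are on different scales. Of the luminal prostate markers, KLK3, the gene of prostate-specific antigen, was at 579 to 4434 CPM in C4-2 and 36.6 to 47.8 CPM in 22RV1. The prostate transcription factor gene HOXB13 was at 108.7 to 334.1 CPM in C4-2 and 183.6 to 253.7 CPM in 22RV1. Summed basal markers were at most 0.507 CPM in C4-2 and summed immune markers at most 1.49 CPM in either line. Of the 3 endothelial markers, PECAM1 had no counts in any library and CDH5 at most 3 reads, while VWF in C4-2 was at 3.82 to 4.57 CPM in Ctrl and 1.46 to 2.23 CPM with CC-115, and at 2.39 to 4.35 CPM with Enza and 0.566 to 0.892 CPM with CC-115+Enza. The 4 fibroblast markers summed to 1.46 to 9.07 CPM in C4-2 (2.99 to 9.07 CPM with Enza), and in 22RV1 to 2.96 to 4.50 CPM in Control and 7.37 to 11.6 CPM with CC-115. The fibroblast marker DCN had at most 7 reads in any library. The part of these genes in the results was not tested. Neuroendocrine markers summed to 62.05 to 76.24 CPM in 22RV1 and 2.60 to 5.65 CPM in C4-2. In bulk RNA, fewer cells that express a gene and less RNA of it per cell cannot be told apart.

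With CC-115, MAP2K6 was down to 14 to 19 reads per C4-2 library from 651 to 720 in Ctrl, MAP2K3 and MAPK14 were lower, and MAP3K5 was higher, and the same 4 directions were found when CC-115 was added to Enza. In 22RV1, CC-115 lowered MAP2K6 and MAPK14 and raised DUSP1, MAPKAPK3, MAPK12 and MAPK11. Levels are TMM-scaled CPM, scaled apart in each line. Changes are log2 fold changes ± SE, and adjusted p-values are from edgeR's quasi-likelihood test with Benjamini-Hochberg adjustment over all features of a comparison. Called means an adjusted p under 0.05. CC-115 against Ctrl chose MAP2K6, so its values are given as a description with no p, as are those of MAP2K6 in every comparison that uses the C4-2 Ctrl or CC-115 libraries. The single-compound comparisons share their Ctrl libraries, and the additions to Enza share the Enza libraries.

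**Figure D1:**
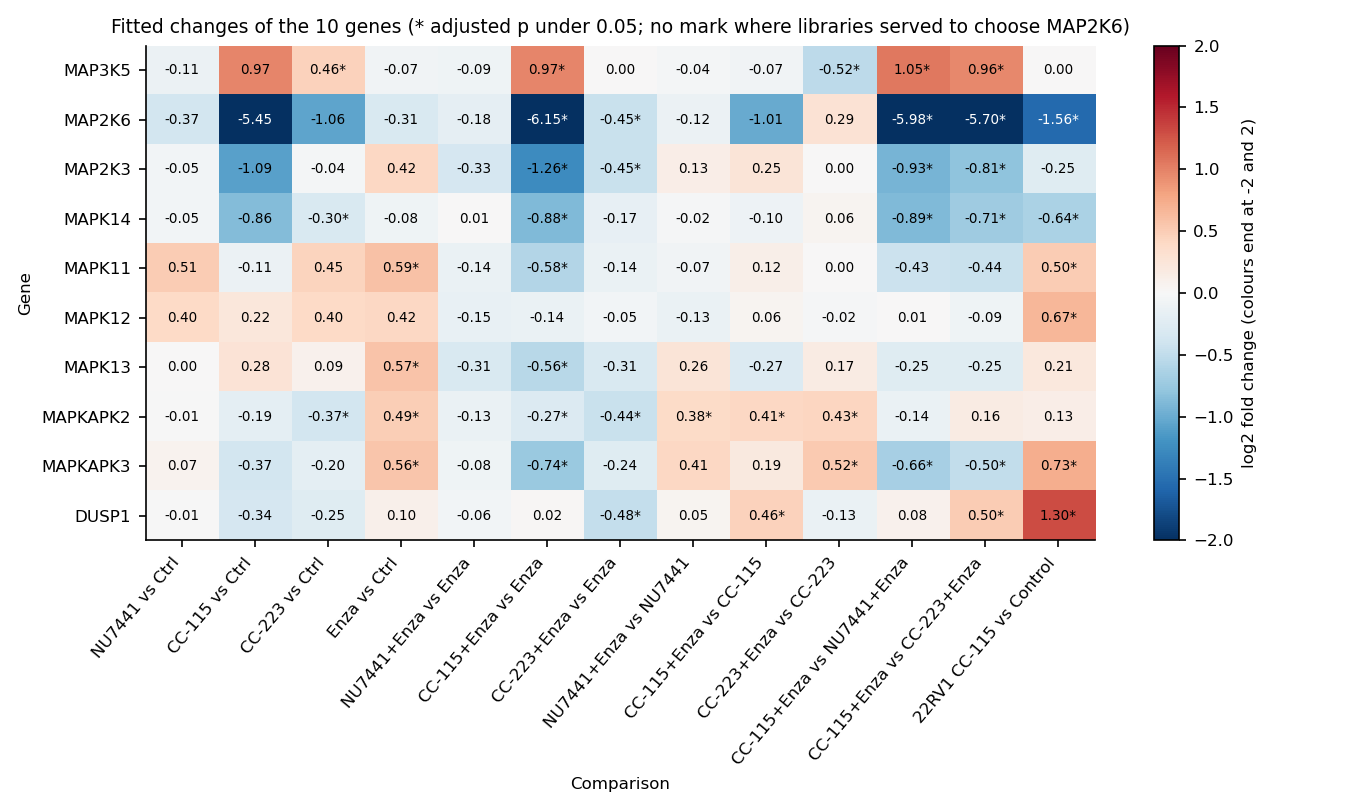
Fitted log2 fold changes of the 10 genes (rows) in 13 comparisons (columns), with red for higher and blue for lower in the first-named group, colours ending at -2 and 2, and a star at an adjusted p under 0.05. MAP2K6 is at -5.45 to -6.15 with CC-115 in 4 C4-2 columns and at -1.56 in 22RV1, and stars are left out where the libraries served to choose MAP2K6.

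Each count of called genes is set beside the share of all features called in the same comparison. Counts that use the C4-2 Ctrl or CC-115 libraries take in MAP2K6, whose choice used those libraries, so comparisons with Ctrl are also counted over the 9 other genes. CC-115 against Ctrl called 6 of 10 (1 higher and 5 lower), or 5 of the 9, where 53.6% of all 22860 features were called (27.6% higher and 26% lower). Nothing is read from that count, as this comparison chose the set. When CC-115 was added to Enza, 8 of 10 were called (1 higher and 7 lower) against 58.7% of all features (28.5% higher and 30.2% lower), with a median log2 change of -0.57 over the 10 genes and 0.03 over all features. Without Enza 1 and CC-115+Enza 1 the median was -0.07, against -0.02 over all features, and 7 of 10 were called (3 higher and 4 lower) against 57.8%, since MAPK11, MAPK13 and MAPKAPK2 were no longer called while MAPK12 (0.32) and DUSP1 (0.31) were called as higher. CC-223 against Ctrl called 4 of 10, or 3 of the 9, against 23.9% (8 of 10, or 7 of the 9, against 42.8% without the same libraries). CC-223 added to Enza called 4 of 10, all lower, against 28% in either direction and 15% lower. Without the same libraries it called 7 of 10 against 36.3%, 5 lower and 2 higher (MAPK11 and MAPK12). Enza against Ctrl called 5 of 10, or 4 of the 9, against 16.1% (4 of 10, or 3 of the 9, against 21.4%). NU7441 against Ctrl called 1 of 10 against 3.39%, and that gene was MAP2K6. Of the 9 others edgeR called 0, with 2 at an unadjusted p under 0.05 (3899 of all 22860 features). DESeq2 called 0 of the 9 (1075 of 15935 features), and edgeR called 2 of the 9 against 21.7% without the same libraries. NU7441 added to Enza called 0 of 10 against 0.381% by edgeR, with 2 of 10 at an unadjusted p under 0.05 (3573 of all 22860 features). DESeq2 called 0 of 10 there (300 of 16785 features), and edgeR called 1 of 10 against 2.59% without both libraries. CC-115 in 22RV1 called 6 of 10 (4 higher and 2 lower) against 40.9% of 19392 features (20.2% higher and 20.7% lower), with medians of 0.17 over the 10 genes and -0.02 over all features. No test of these counts against their backgrounds was made.

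MAP2K6 (ENSG00000108984, hg19 chromosome 17, 67410839 to 67539472, plus strand, a span of 128.6 kb with 6125 exonic bases) was highest in C4-2 Ctrl and lowest in CC-115+Enza. In Ctrl the libraries were at 21.5, 20.5 and 19.8 CPM. With CC-115 they were at 0.558, 0.376 and 0.477 CPM, from 19, 14 and 18 reads. No CC-115 library came within 10-fold of any Ctrl library. The fitted level was 43.6-fold lower (log2 change -5.45, a description), which put MAP2K6 at rank 3 from the lowest of 11434 protein-coding genes with an average log2 CPM of at least 1, beside RPP25 (-5.46) just before it and APLN (-5.22) just after.

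The Enza libraries held MAP2K6 at 15.3, 17.8 and 16.7 CPM, all below Ctrl. Adding CC-115 to Enza left 0.270, 0.165 and 0.255 CPM, from 11, 7 and 12 reads. These are the lowest values of the series, and all 3 lie below all 3 libraries with CC-115 alone. Relative to Enza, whose libraries the choice of MAP2K6 did not use, the fall was 71.1-fold (log2 change -6.15, adjusted p = 1.43e-19), the lowest of the same 11434 genes. No SE or interval is given for falls to these 7 to 12 reads, as the SE used here is too narrow at such counts. It was -6.32 without Enza 1 and CC-115+Enza 1, and -6.27 to -5.93 when any single library of either group was left out. MAP2K6 was also the lowest-ranked gene for CC-115+Enza against NU7441+Enza (-5.98, adjusted p = 1.11e-19), where 5 of the 10 genes were called against 57.9% of all features. The same rank was found against CC-223+Enza (-5.70, adjusted p = 4.25e-19), where 6 of 10 were called against 50.4%. With Enza present at the same 1 µM and 24 h, the fall with CC-115 thus exceeded those with the DNA-PK inhibitor and the TOR kinase inhibitor by 63.0-fold and 51.9-fold.

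The TOR kinase inhibitor moved MAP2K6 by less. CC-223 libraries were at 9.61, 10.2 and 9.88 CPM, all below every Ctrl, Enza and NU7441 library, with a fitted difference from Ctrl of -1.06 (2.08-fold, a description, rank 119 of 11434). CC-223+Enza libraries were at 11.5, 12.0 and 12.9 CPM, below all Enza libraries and above all CC-223 libraries. MAP2K6 fell by 0.45 ± 0.10 on the log2 scale when CC-223 was added to Enza (adjusted p = 0.00189, and -0.53 to -0.40 with any 1 library left out). With Enza added to CC-223 the difference was 0.29 (adjusted p = 0.0729), and it was called in the fit without the Enza 1 and CC-115+Enza 1 libraries (0.29, adjusted p = 0.00878). The difference between the CC-223 effects with and without Enza was 0.60, a description.

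NU7441 libraries were at 17.9, 13.7 and 16.3 CPM of MAP2K6, all below Ctrl, with a fitted difference of -0.37 (rank 536). NU7441+Enza libraries were at 15.0, 14.3 and 14.8 CPM, inside the NU7441 range and below the lowest Enza library. The change of MAP2K6 when NU7441 was added to Enza was -0.18 (95% interval -0.38 to 0.03, adjusted p = 0.422). In order of mean CPM ± SD (n = 3 each), C4-2 groups ran Ctrl 20.6 ± 0.866, Enza 16.6 ± 1.24, NU7441 16.0 ± 2.11, NU7441+Enza 14.7 ± 0.353, CC-223+Enza 12.1 ± 0.684, CC-223 9.89 ± 0.287, CC-115 0.470 ± 0.0912 and CC-115+Enza 0.230 ± 0.0567. Enza and NU7441 overlapped, as did NU7441 and NU7441+Enza, and the other neighbours in this order did not. The difference between CC-115+Enza and CC-115 was -1.01, a description from 7 to 19 reads per library.

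In 22RV1, MAP2K6 stood lower at the start and fell by less. Control libraries were at 6.34, 7.22 and 6.19 CPM and CC-115 libraries at 2.38 and 2.08 CPM. The groups did not overlap. The fall was 2.94-fold (log2 change -1.56 ± 0.20, approximate 95% interval -1.94 to -1.17, adjusted p = 0.000895), at rank 279 of 11493 protein-coding genes, and -1.66 to -1.47 with any 1 library left out. Among the deeper libraries (2 Control, 1 CC-115) the log2 ratio was -1.51 and among the shallower (1 and 1) it was -1.57. The 22RV1 fall was smaller than that of C4-2 by 3.95 on the log2 scale, a description since the C4-2 side chose the gene.

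**Figure D2:**
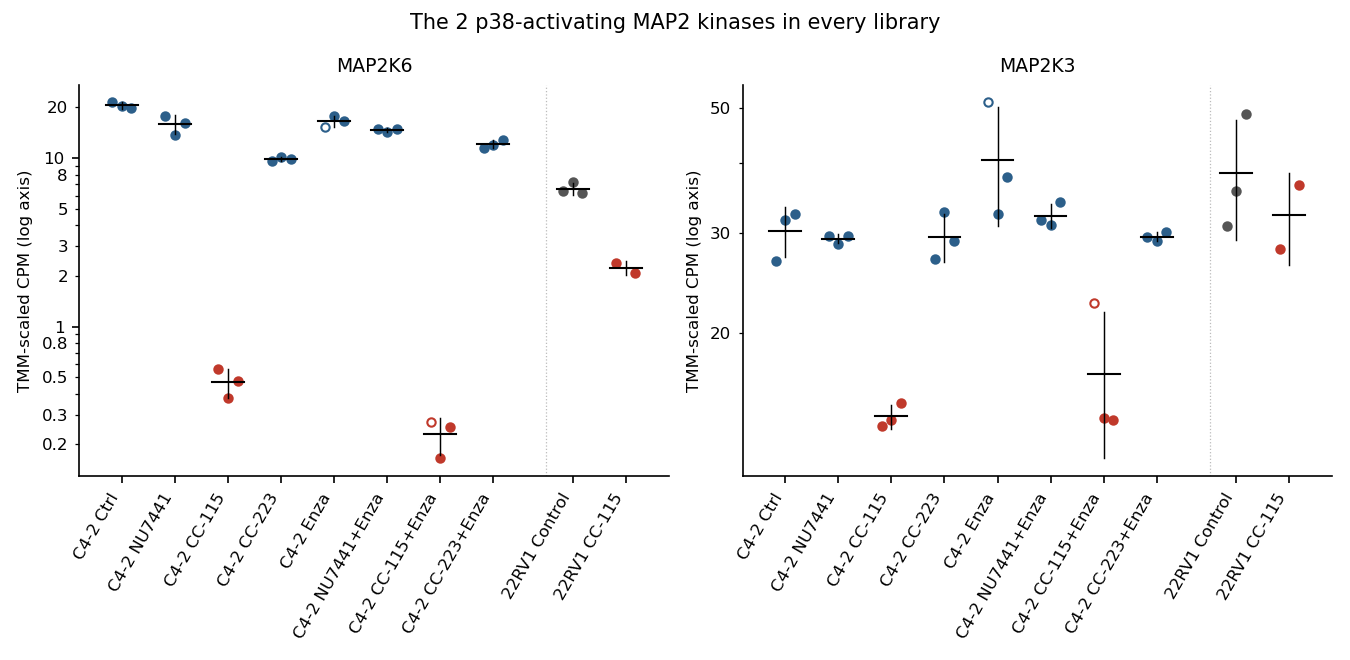
CPM of MAP2K6 and MAP2K3 on a log axis for each library, by group, with circles for libraries, bars for means and vertical lines for SD, open circles for Enza 1 and CC-115+Enza 1, and a dotted line between C4-2 and 22RV1, which were scaled apart. MAP2K6 lies at 0.165 to 0.558 CPM in the 6 C4-2 libraries with CC-115 and at 9.61 to 21.5 CPM in the other 18, while MAP2K3 lies at 13.7 to 22.6 CPM in those 6 libraries.

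Genes with a profile like that of MAP2K6 were sought among 11269 protein-coding genes, by the root mean square difference in mean log2 CPM relative to the control over the 7 treated C4-2 groups and CC-115 in 22RV1. The most alike were FAM111B (0.46, Pearson r 0.991 over the same 8 differences), APLN (0.66, 0.96), HTR3A (0.68, 0.988), CLSPN (0.69, 0.967) and H2BC11 (0.71, 0.984). FAM111B encodes a serine protease, APLN the peptide ligand of the apelin receptor, HTR3A a serotonin-gated channel subunit, CLSPN the replication checkpoint adaptor claspin and H2BC11 a replication-dependent histone. The 8 differences share 2 control groups, so the coefficients describe the profiles only. Relative to control, CLSPN was at -4.51 with CC-115 in C4-2 and -2.66 in 22RV1, whereas APLN was at -5.13 and -0.02.

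The genes nearest to MAP2K6 on chromosome 17 did not share one direction. ABCA5, which encodes a lipid transporter (67240452 to 67323385, minus strand, 87.5 kb upstream), rose by 2.06 ± 0.16 when CC-115 was added to Enza (adjusted p = 2.79e-11). Its Enza libraries were at 4.31, 6.41 and 7.74 CPM and its CC-115+Enza libraries at 25.0, 29.6 and 22.4 CPM, with no overlap. In 22RV1 the ABCA5 difference was 0.24 (adjusted p = 0.711), with Control libraries at 3.54, 4.68 and 1.53 CPM and CC-115 libraries at 5.31 and 2.32 CPM. There the lowest library of each group was the shallower one. The processed pseudogene SNRPGP4, 95.7 kb upstream, had few reads, at 2, 5 and 3 with Enza and 31, 19 and 11 with CC-115+Enza. It lies within the span of ABCA5 on the other strand, and the strand setting of the counting is not given. Whether its reads are separate from those of ABCA5 was not tested. ENSG00000267194, a feature with no symbol 8.0 kb downstream on the same strand (67547499 to 67550002), was named after its values were seen. It had 36, 56 and 45 reads with Enza and 3, 1 and 3 reads with CC-115+Enza. In 22RV1 it had 35, 43 and 29 reads in Control and 12 and 0 with CC-115. Counts this low give no firm fold, but the direction was that of MAP2K6.

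MAP2K3 (ENSG00000034152, chromosome 17, 21187984 to 21218552, plus strand), the other main activator of p38, was lower with CC-115 in C4-2 by far less than MAP2K6. Ctrl libraries were at 26.8, 31.7 and 32.4 CPM and CC-115 libraries at 13.7, 14.0 and 15.0 CPM, without overlap, for a fitted difference of -1.09 (description). Enza libraries were at 51.2, 32.5 and 37.8 CPM and CC-115+Enza libraries at 22.6, 14.1 and 14.0 CPM. In both of these groups replicate 1 was the highest, and the groups did not overlap. MAP2K3 fell by 1.26 ± 0.15 when CC-115 was added to Enza (adjusted p = 8.27e-08), by 1.32 without both replicates 1, and by 1.01 to 1.52 with any 1 library left out. It also fell relative to NU7441+Enza (-0.93 ± 0.15, adjusted p = 8.35e-06) and CC-223+Enza (-0.81 ± 0.15, adjusted p = 6.8e-05).

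With NU7441 and CC-223 alone, MAP2K3 was not called. NU7441 libraries were at 29.7, 28.8 and 29.6 CPM and CC-223 libraries at 27.0, 32.7 and 29.1 CPM, both overlapping Ctrl. CC-223+Enza libraries were at 29.6, 29.1 and 30.1 CPM and NU7441+Enza libraries at 31.6, 31.0 and 34.1 CPM. All Enza libraries lay above all Ctrl libraries, the lowest at 32.5 CPM and the highest Ctrl library at 32.4 CPM. The difference with Enza was 0.42 and was not called (adjusted p = 0.0558). It was 0.21 (adjusted p = 0.0553) without Enza 1 and CC-115+Enza 1, and it was called without Enza replicate 2 (0.53, adjusted p = 0.0172) and with no filter on low counts (0.38, adjusted p = 0.0421). MAP2K3 fell when CC-223 was added to Enza (-0.45, adjusted p = 0.0242). The difference was -0.25 (adjusted p = 0.0136) without Enza 1 and CC-115+Enza 1 and -0.24 (adjusted p = 0.241) without Enza 1 alone, and the call was also lost without any 1 CC-223+Enza library (adjusted p = 0.0557 to 0.0734). In 22RV1, Control libraries were at 30.9, 35.7 and 48.7 CPM and CC-115 libraries at 28.1 and 36.6 CPM, which overlap (-0.25, adjusted p = 0.393). There the highest library of each group was the shallower one, and with a term for depth, chosen after seeing the data, the difference was -0.32 (adjusted p = 0.00167). The effect of CC-115 on MAP2K3 differed between the lines by 0.89 (22RV1 minus C4-2, adjusted p = 0.00903), and by 0.65 (adjusted p = 0.0535) without 22RV1 CC-115 replicate 2.

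Per kb of exon, C4-2 Ctrl cells held 8.015 CPM of MAP2K3 and 3.36 of MAP2K6, and CC-115 cells 3.76 and 0.0768. In 22RV1 Control the levels were 10.2 CPM per kb for MAP2K3 and 1.075 for MAP2K6. By summed exon length, which need not match the length of the transcripts used, MAP2K3 was the more abundant of the 2 in these 3 groups.

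The other MAP2K genes, which serve mainly the ERK, JNK and ERK5 pathways, moved in both directions. MAP2K5, the activator of ERK5, rose in both lines. Its Enza libraries were at 7.74, 9.04 and 11.1 CPM and its CC-115+Enza libraries at 25.1, 17.2 and 16.0 CPM, without overlap (1.07 ± 0.14, adjusted p = 5.23e-07). Enza 1 was the lowest of the former and CC-115+Enza 1 the highest of the latter, which widened this difference. The other libraries of these groups did not overlap either. In 22RV1 MAP2K5 went from 4.38, 4.63 and 5.55 CPM to 14.6 and 20.0 CPM (1.83 ± 0.21, adjusted p = 0.000552). CC-223 also raised MAP2K5, by 0.54 ± 0.15 against Ctrl (adjusted p = 0.00939) and by 0.43 ± 0.14 when added to Enza (adjusted p = 0.0276). Enza 1 widened the second of these too. MAP2K1, an activator of ERK, fell by 0.88 ± 0.13 when CC-115 was added to Enza (adjusted p = 1.88e-06) and by 0.75 ± 0.13 in 22RV1 (adjusted p = 0.00325), the direction of MAP2K6. Without Enza 1 and CC-115+Enza 1 the first of these was -0.54 (adjusted p = 4.21e-09). MAP2K2, the other ERK activator, fell by 0.64 ± 0.16 in the first comparison (adjusted p = 0.0011) and rose by 0.80 ± 0.15 in 22RV1 (adjusted p = 0.00504). Its Enza replicate 1 library, at 175.3 CPM, lay above the other Enza libraries at 98.5 and 90.1 CPM, and its CC-115+Enza libraries at 63.6, 90.3 and 79.2 CPM overlap those. Without both replicates 1 the MAP2K2 difference was -0.15 and was not called (adjusted p = 0.0647). The JNK activators MAP2K4 (-0.09) and MAP2K7 (0.09) were not called with CC-115 added to Enza. MAP2K4 had a mean of 80.1 CPM in Ctrl and 55.5 CPM with Enza, where Enza 1 was the lowest library at 38.5 CPM. In 22RV1 its mean was 24.7 CPM in Control and 16.5 CPM with CC-115.

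**Figure D3:**
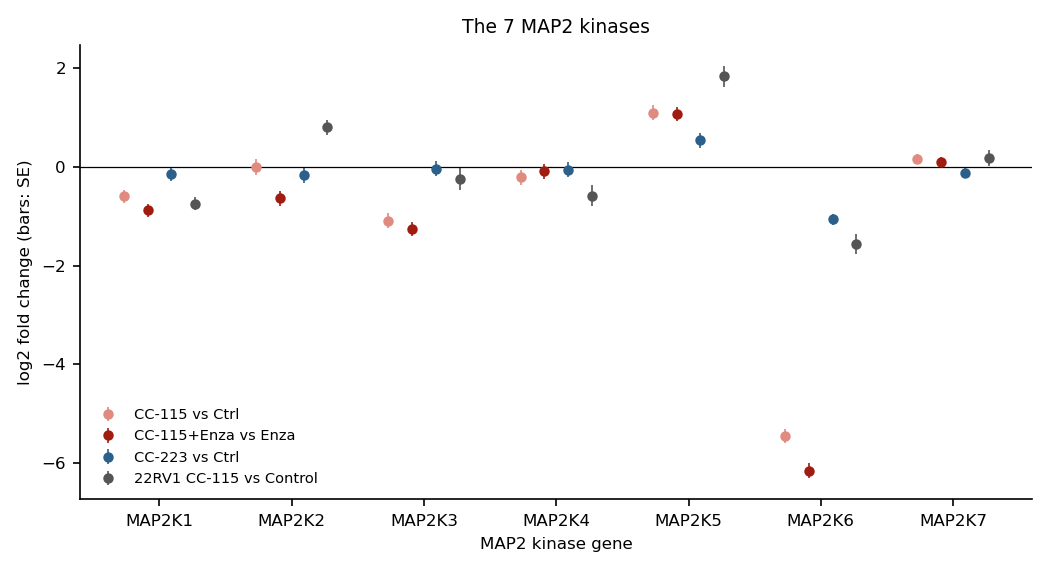
Fitted log2 fold changes with SE as error bars for the 7 MAP2K genes in CC-115 against Ctrl, CC-115+Enza against Enza, CC-223 against Ctrl, and CC-115 against Control in 22RV1. MAP2K6 lies lowest at -6.15 in CC-115+Enza against Enza, and MAP2K5 lies highest at 1.83 in 22RV1. The bars of MAP2K6 with CC-115 in C4-2 are too narrow for its 7 to 19 reads.

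MAP3K5 (ENSG00000197442, chromosome 6, 136878185 to 137113656, minus strand), the stress-activated kinase upstream of MAP2K3 and MAP2K6, was higher with CC-115 in C4-2 and not in 22RV1. Ctrl libraries were at 23.7, 23.3 and 21.9 CPM and CC-115 libraries at 44.7, 43.3 and 47.5 CPM (fitted difference 0.97, description). Enza libraries were at 22.9, 20.9 and 22.2 CPM and CC-115+Enza libraries at 37.4, 48.8 and 42.5 CPM. The groups of neither pair overlapped, and MAP3K5 rose by 0.97 ± 0.10 when CC-115 was added to Enza (adjusted p = 1.06e-08, and 0.90 to 1.06 with any 1 library left out). It was higher in CC-115+Enza than in NU7441+Enza (1.05 ± 0.10, adjusted p = 2.63e-09) and CC-223+Enza (0.96 ± 0.10, adjusted p = 1.78e-08).

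CC-223 libraries held MAP3K5 at 32.5, 31.1 and 30.9 CPM, above all Ctrl libraries (0.46, adjusted p = 0.00182). CC-223+Enza libraries were at 23.0, 21.7 and 21.4 CPM, within the range of Ctrl and Enza together. Adding Enza to CC-223 lowered MAP3K5 by 0.52 (adjusted p = 0.000628), in a comparison that called 3 of 10 genes against 12.4% of all features (5 of 10 against 26.6% without the libraries that stand apart). The difference between the CC-223 effects with and without Enza was -0.45 and was not called (adjusted p = 0.263). It was called without Enza 1 and CC-115+Enza 1 (-0.42, adjusted p = 0.0366). In 22RV1, Control libraries were at 25.1, 27.1 and 25.5 CPM and CC-115 libraries at 29.1 and 22.5 CPM, on either side of Control (0.00, adjusted p = 0.984). The effect of CC-115 differed between the lines by -0.92 (adjusted p = 0.000941), in a joint fit that called 7 of 10 genes (6 of the 9 beside MAP2K6) against 27.5% of all features.

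MAPK14 (ENSG00000112062, chromosome 6, 35995488 to 36079013, plus strand) encodes p38 alpha, the widely expressed p38 kinase. It had the narrowest spread of the 10 genes in Ctrl relative to its mean, with libraries at 88.3, 86.8 and 86.4 CPM. CC-115 libraries were at 48.4, 48.1 and 48.0 CPM (fitted difference -0.86, description), and CC-223 libraries at 70.3, 70.9 and 71.1 CPM. CC-223 lay between CC-115 and Ctrl with no overlap, and its fall against Ctrl was -0.30 ± 0.08 (adjusted p = 0.00583).

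With Enza, MAPK14 was at 84.9, 83.7 and 79.5 CPM, and with CC-115+Enza at 42.6, 44.6 and 47.7 CPM. It fell by 0.88 ± 0.08 (adjusted p = 5.08e-10), by 0.82 without both replicates 1, and by 0.81 to 0.88 with any 1 library left out. CC-223+Enza libraries were at 73.6, 72.9 and 74.5 CPM, all below the Enza libraries, but the difference was not called (-0.17, and -0.15 with an adjusted p = 0.0382 without the libraries that stand apart). In 22RV1, Control libraries were at 68.6, 59.6 and 57.4 CPM and CC-115 libraries at 44.0 and 35.6 CPM. The groups did not overlap, and MAPK14 fell by 0.64 (adjusted p = 0.0124), a call that was lost without CC-115 replicate 2 (-0.49, adjusted p = 0.0617) or Control replicate 1 (-0.56, adjusted p = 0.0609). The difference between the lines was 0.27 and was not called (adjusted p = 0.21).

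MAPK11 (p38 beta) and MAPK12 (p38 gamma) lie next to each other on chromosome 22, both on the minus strand, with 1.89 kb between them (50702142 to 50709196, ENSG00000185386, and 50683879 to 50700254, ENSG00000188130). MAPK12 shares 2763 exonic bases, 29.3% of its exons, with HDAC10 on the same strand, so its level is uncertain. With CC-115 in C4-2 the 2 genes differed little from Ctrl. MAPK11 libraries were at 11.6, 12.3 and 12.6 CPM in Ctrl and 10.8, 11.9 and 11.0 CPM with CC-115. MAPK12 libraries were at 43.7, 45.7 and 44.7 CPM in Ctrl and 50.6, 53.9 and 51.1 CPM with CC-115. The fitted differences were -0.11 and 0.22 (descriptions), and the MAPK12 groups did not overlap.

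The Enza values of both genes rested on 1 library. MAPK11 was at 28.7, 12.7 and 13.7 CPM and MAPK12 at 90.2, 45.8 and 43.3 CPM in the Enza libraries, replicate 1 lying far above the others in both. The rise of MAPK11 with Enza (0.59, adjusted p = 0.0431) was 0.07 (adjusted p = 0.793) without Enza 1. The fall of MAPK11 when CC-115 was added to Enza (-0.58, adjusted p = 0.0135) was -0.05 (adjusted p = 0.767) without it. MAPK12 in that comparison went from -0.14 (adjusted p = 0.483) to 0.33 (adjusted p = 0.00305), so its direction was set by this library. With CC-223 added to Enza, MAPK12 likewise went from -0.05 to 0.38.

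With CC-223 alone MAPK11 was at 16.3, 16.9 and 16.8 CPM and MAPK12 at 55.1, 59.3 and 61.9 CPM, all above the Ctrl libraries. Neither difference was called (0.45 and 0.40), and both were called without the libraries that stand apart (adjusted p = 0.000189 and 2.91e-06). NU7441 libraries were at 15.4, 21.8 and 14.9 CPM of MAPK11 and 59.7, 64.8 and 51.9 CPM of MAPK12, also above Ctrl (0.51, adjusted p = 0.163, and 0.40, adjusted p = 0.203). These differences were called as well without Enza 1 and CC-115+Enza 1.

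In 22RV1, MAPK11 and MAPK12 rose with CC-115. MAPK12 went from 107, 108 and 121 CPM to 150 and 206 CPM (0.67 ± 0.15, adjusted p = 0.0102, and 0.43 to 0.88 with any 1 library left out). MAPK11 went from 67.1, 70.3 and 83.0 CPM to 88.7 and 119 CPM. Neither pair of groups overlapped. The MAPK11 rise of 0.50 (adjusted p = 0.0403) was lost without CC-115 replicate 2 (0.27, adjusted p = 0.245), Control replicate 1 (adjusted p = 0.139) or Control replicate 2 (adjusted p = 0.126). In both genes the highest library of each group was the shallower one. The log2 ratio was 0.37 among the deeper libraries and 0.52 among the shallower for MAPK11, and 0.49 and 0.77 for MAPK12. The effects of CC-115 differed between the lines by 0.66 for MAPK11 (adjusted p = 0.00924) and 0.50 for MAPK12 (adjusted p = 0.0203). Without 22RV1 CC-115 replicate 2 the differences were 0.39 and 0.22. The MAPK12 call was lost without 22RV1 Control replicate 2 (0.41, adjusted p = 0.0658) and with no filter on low counts (0.40, adjusted p = 0.0509). It was also lost without C4-2 CC-115 replicate 1 or 3 or C4-2 Ctrl replicate 2 (adjusted p = 0.0513 to 0.0533).

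MAPK13 (p38 delta, ENSG00000156711, chromosome 6, 36095586 to 36107842, plus strand) follows MAPK14 on the same strand after 16.57 kb. Unlike its neighbour it was not lower with CC-115 alone. Ctrl libraries were at 22.6, 24.7 and 25.6 CPM and CC-115 libraries at 30.4, 28.9 and 29.0 CPM, without overlap (0.28, description). Enza libraries were at 50.6, 29.0 and 28.4 CPM and CC-115+Enza libraries at 20.4, 26.9 and 26.0 CPM. Here replicate 1 was the highest Enza library and the lowest CC-115+Enza library. The fall with CC-115 added to Enza (-0.56, adjusted p = 0.00192) was -0.12 (adjusted p = 0.202) without both. The rise with Enza (0.57, adjusted p = 0.0091) was 0.24 (adjusted p = 0.0122) without both and 0.20 (adjusted p = 0.222) without Enza 1 alone. In 22RV1, Control at 29.3, 33.7 and 36.6 CPM overlapped CC-115 at 32.3 and 44.4 CPM (0.21, adjusted p = 0.384).

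The difference between the effects of an inhibitor with and without Enza was tested for each gene. For CC-115 it was called for MAPK13 alone (-0.83, adjusted p = 0.0219), 1 of 10 genes against 3.27% of all features (2 of 10, DUSP1 at 0.65 and MAPK13 at -0.39, against 6.17% without both replicates 1), and the call was lost when any 1 Ctrl or CC-115 library was left out (adjusted p = 0.0659 to 0.091). For CC-223 edgeR called 0 of 10 against 0.376%, with 3 at an unadjusted p under 0.05 (2220 of all 22860 features). DESeq2 called 1 of 10, MAP2K6 (176 of 17636 features). Without both replicates 1 edgeR called 2 of 10, MAP2K6 (0.55, a description) and MAP3K5 (-0.42), against 1.92%. For NU7441 both tools called 0 of 10 and edgeR 0% of all features, with 2 of 10 at an unadjusted p under 0.05 (1548 of all 22860 features).

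Per kb of exon, the p38 transcripts of C4-2 Ctrl ran MAPK14 12.8, MAPK13 8.87, MAPK12 4.74 and MAPK11 3.67 CPM per kb. In 22RV1 Control the order was MAPK11 22.1, MAPK13 12.1, MAPK12 11.9 and MAPK14 9.06 CPM per kb. By this measure MAPK14 was the first of the 4 in C4-2 and the last in 22RV1, with each line scaled by itself. MAPK13 and MAPK12 differed in 22RV1 by less than the spread of either. The divisor is the summed exon length of a gene, 9421 bases for MAPK12, and not the length of a transcript. As MAPK12 also shares 29.3% of its exons with HDAC10, the order between genes is uncertain.

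**Figure D4:**
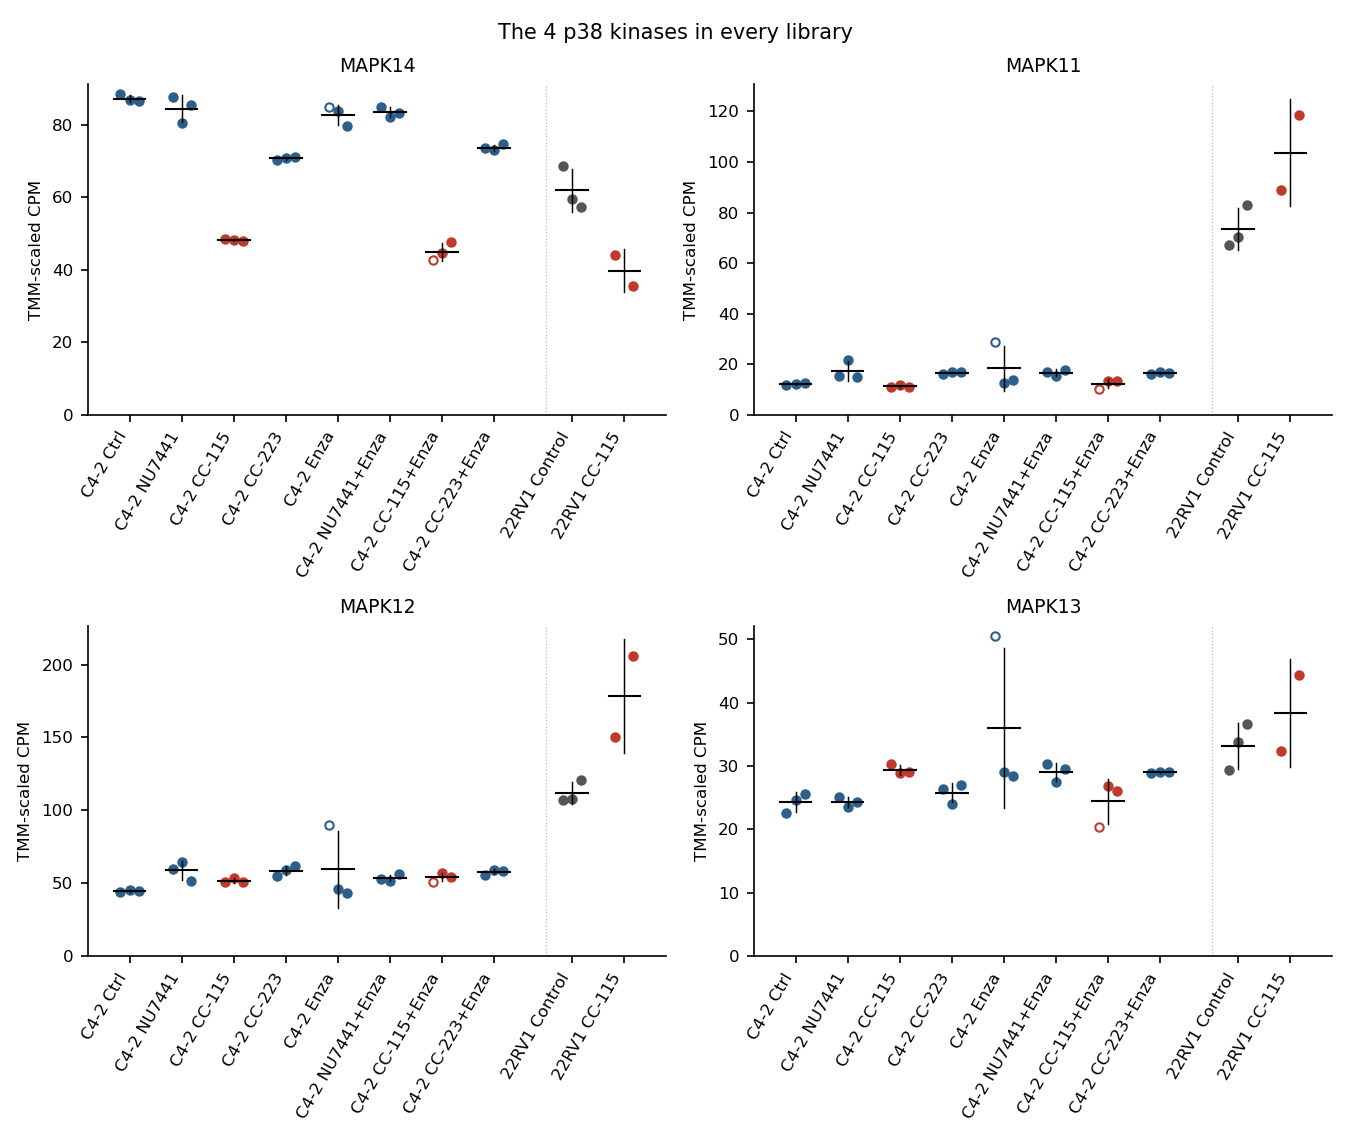
CPM of MAPK14, MAPK11, MAPK12 and MAPK13 in each library by group, with circles for libraries, bars for means, vertical lines for SD, and open circles for Enza 1 and CC-115+Enza 1. MAPK14 lies at 42.6 to 48.4 CPM in the 6 C4-2 libraries with CC-115, and Enza 1 is the highest C4-2 library for MAPK11, MAPK12 and MAPK13.

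MAPKAPK2 (ENSG00000162889, chromosome 1, 206858289 to 206907628, plus strand), the kinase through which p38 stabilises cytokine mRNAs, was higher with Enza than without it, alone and beside each inhibitor. Ctrl libraries were at 50.2, 51.1 and 47.8 CPM and Enza libraries at 82.9, 64.1 and 62.7 CPM, without overlap. MAPKAPK2 rose by 0.49 (adjusted p = 0.0017), and by 0.31 (adjusted p = 0.0325) without Enza 1. It also rose when Enza was added to CC-115 (0.41, adjusted p = 0.0057), from 41.3, 43.7 and 45.8 CPM to 49.4, 66.1 and 57.9 CPM, where 3 of 10 genes (2 of the 9 beside MAP2K6) were called against 23.8% of all features. With CC-223 it rose from 37.6, 38.8 and 39.0 CPM to 51.8, 51.7 and 51.5 CPM (0.43, adjusted p = 0.00579). With NU7441 it rose from 50.8, 47.9 and 48.9 CPM to 64.7, 61.5 and 65.5 CPM (0.38, adjusted p = 0.0259), the 1 of 10 genes called there against 6.08% of all features (3 of 10 against 15.7% without the libraries that stand apart). No group pair among these overlapped, although the NU7441 call was lost with any 1 of its libraries left out (adjusted p = 0.0503 to 0.176) and the CC-115 call without CC-115 replicate 1 (adjusted p = 0.0554).

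CC-223 lowered MAPKAPK2, by 0.37 against Ctrl (adjusted p = 0.0117) and by 0.44 when added to Enza (adjusted p = 0.00275), or 0.30 without the libraries that stand apart (adjusted p = 0.000243). The fall with CC-115 added to Enza (-0.27, adjusted p = 0.0268) was -0.03 (adjusted p = 0.734) without both libraries that stand apart, -0.08 (adjusted p = 0.47) without Enza 1 and -0.17 without CC-115+Enza 1. In 22RV1, Control libraries at 72.4, 77.5 and 83.4 CPM overlapped CC-115 libraries at 75.3 and 94.4 CPM (0.13, adjusted p = 0.507).

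MAPKAPK3 (ENSG00000114738, chromosome 3, 50648951 to 50686720, plus strand), the close relative of MAPKAPK2, shares 218 exonic bases (5.6%) with CISH on the other strand, and the strand setting of the counting is not given in the sources used here. The median count of CISH was 70 in C4-2 and 266 in 22RV1, against 2225 for MAPKAPK3 in C4-2. MAPKAPK3 rose with Enza, from 61.7, 59.1 and 56.3 CPM to 99.2, 84.9 and 77.7 CPM (0.56, adjusted p = 0.00304, and 0.42, adjusted p = 0.0412, without Enza 1). Like MAPKAPK2, it also rose when Enza was added to CC-223 (0.52, adjusted p = 0.00554). Beside NU7441 (0.41, adjusted p = 0.0545) and CC-115 (0.19, adjusted p = 0.295) the difference was not called. Without the libraries that stand apart both were called (0.41, adjusted p = 3.63e-07, and 0.39, adjusted p = 6.22e-06). CC-115 libraries were at 45.8, 46.6 and 45.1 CPM, all below Ctrl (-0.37, description). CC-115+Enza libraries were at 36.7, 61.3 and 58.5 CPM, with replicate 1 far below the others, and all lay below the Enza libraries. The fall with CC-115 added to Enza was -0.74 ± 0.13 (adjusted p = 1.87e-05) and -0.44 ± 0.07 (adjusted p = 6.34e-07) without both replicates 1.

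In 22RV1 the direction was the opposite one. MAPKAPK3 went from 42.8, 43.9 and 44.8 CPM in Control to 66.1 and 79.8 CPM with CC-115, without overlap. It rose by 0.73 ± 0.13 (adjusted p = 0.00365), by 0.59 to 0.86 with any 1 library left out, and the log2 ratio was 0.61 among the deeper libraries and 0.83 among the shallower. The effect of CC-115 differed between the lines by 1.15 (adjusted p = 2.13e-05).

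DUSP1 (ENSG00000120129, chromosome 5, 172195093 to 172198198, minus strand), the phosphatase that switches p38 and JNK off, had the largest rise of the 10 genes in 22RV1. Control libraries were at 48.3, 50.1 and 51.7 CPM and CC-115 libraries at 111 and 135 CPM, without overlap. DUSP1 rose 2.45-fold (1.30 ± 0.13, adjusted p = 0.000363), by 1.15 to 1.43 with any 1 library left out, and the log2 ratio was 1.17 among the deeper libraries and 1.38 among the shallower. In C4-2, Ctrl libraries were at 19.3, 20.7 and 20.6 CPM and CC-115 libraries at 14.9, 16.2 and 16.8 CPM, all lower (-0.34, description). The effect of CC-115 differed between the lines by 1.68 ± 0.13 (adjusted p = 1.34e-06).

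With Enza present, DUSP1 spread widely. Enza libraries were at 25.6, 20.4 and 18.9 CPM and CC-115+Enza libraries at 16.9, 26.7 and 22.3 CPM, which overlap (0.02, adjusted p = 0.898). Without both replicates 1 the difference was 0.31 (adjusted p = 0.00288). Adding Enza to CC-115 raised DUSP1 by 0.46 (adjusted p = 0.00905), and the call was lost without CC-115 replicate 1 (0.40, adjusted p = 0.0682) or CC-115+Enza replicate 2 (0.28, adjusted p = 0.0836). CC-223+Enza libraries were the lowest of those with Enza, at 15.3, 15.5 and 15.7 CPM. The fall with CC-223 added to Enza (-0.48, adjusted p = 0.00568) was -0.34 (adjusted p = 0.00129) without both replicates 1 and -0.33 (adjusted p = 0.0558) without Enza 1 alone. NU7441 libraries, at 19.5, 21.6 and 19.2 CPM, overlapped Ctrl.

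**Figure D5:**
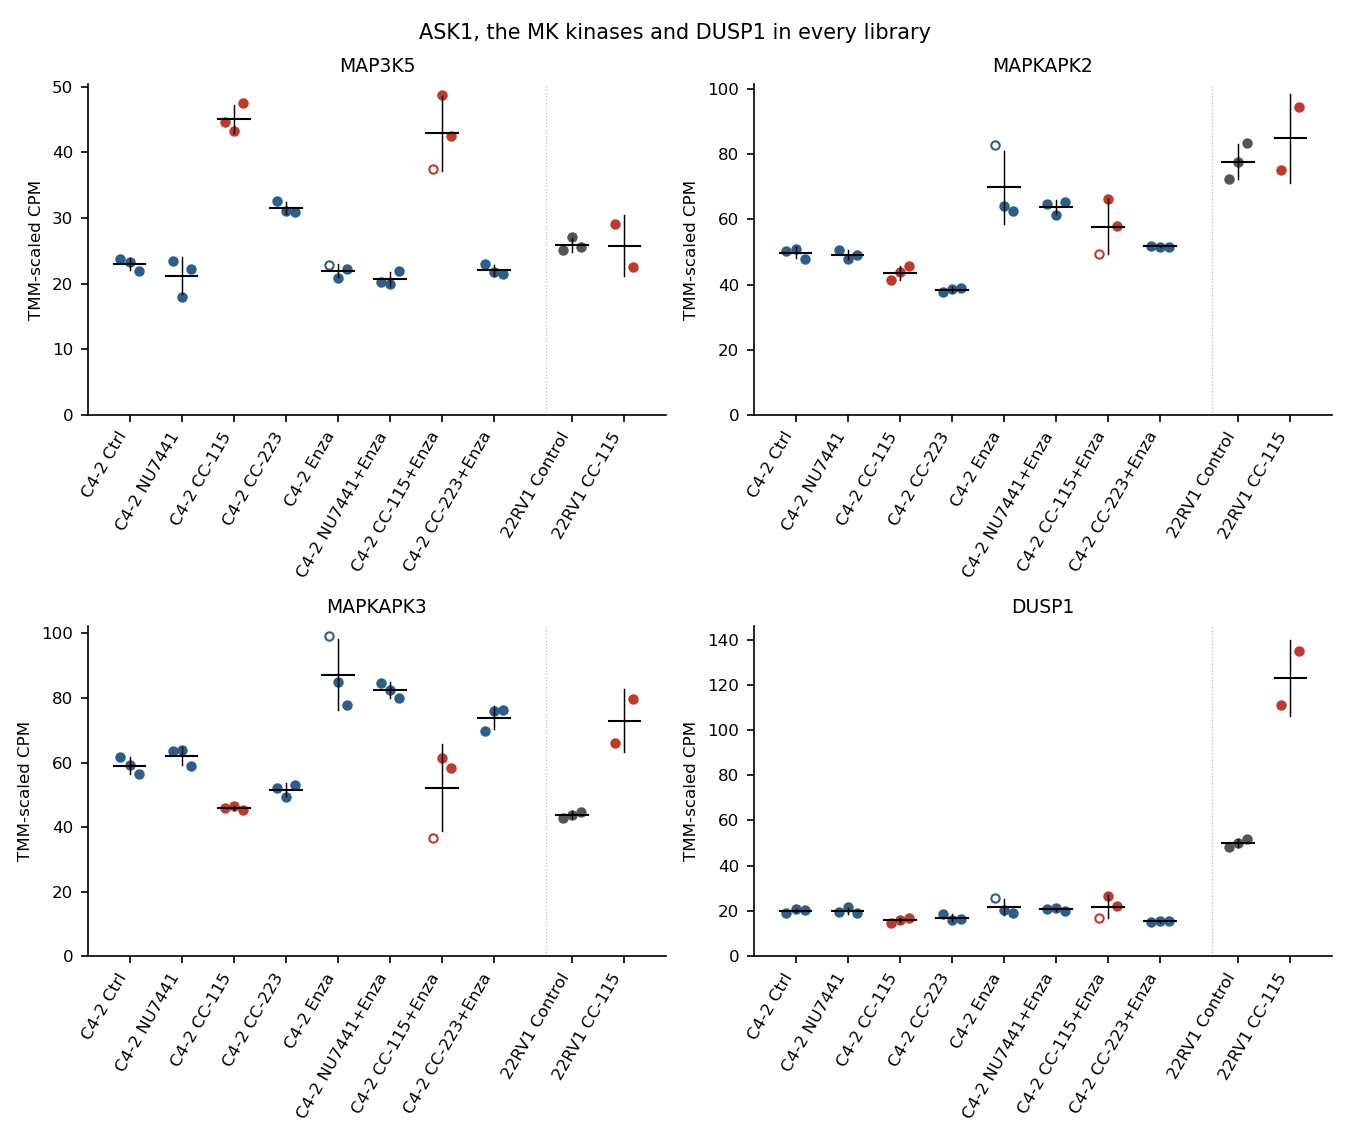
CPM of MAP3K5, MAPKAPK2, MAPKAPK3 and DUSP1 in each library by group, with circles for libraries, bars for means, vertical lines for SD, and open circles for Enza 1 and CC-115+Enza 1. MAP3K5 is at 37.4 to 48.8 CPM in C4-2 libraries with CC-115, and DUSP1 reaches 111 and 135 CPM in 22RV1 with CC-115 against 48.3 to 51.7 CPM in Control.

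Around the 10 genes, 97 other genes of the mitogen-activated kinase pathways were followed in 5 lists, of which 96 were measured in each line. When CC-115 was added to Enza, 25 rose and 39 fell, 64 of 96 against the 58.7% of all features (75 of 96 without the libraries that stand apart, 35 higher and 40 lower). Among 25 upstream kinases and adaptors, 4 rose and 11 fell (10 and 11 without those libraries), with GADD45A (-1.44), MAP3K20 (-1.38), GADD45B (-1.17) and TXN (-1.13) changing most. Without those libraries GADD45A was at -0.88 and GADD45B at -0.57, both still called. GADD45A and GADD45B are stress-induced activators of p38 and JNK signalling, and thioredoxin (TXN) inhibits MAP3K5. Of 21 substrates and effectors, 6 rose and 8 fell, led by the transcription factors MEF2C (-2.55) and DDIT3 (1.84), the heat shock protein HSPB1 (-1.58) and MEF2D (1.31). Of 15 phosphatases, 6 rose and 6 fell, led by PTPRR (2.04), DUSP9 (-1.88), PTPN7 (1.83) and DUSP6 (1.58). The JNK list had 4 rises and 5 falls among 14 genes and the ERK list 5 rises and 9 falls among 21. No list moved in 1 direction alone.

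In 22RV1, CC-115 raised 27 and lowered 24 of the 96 other genes, 51 in all against 40.9% of all features. The JNK list had 7 rises and 1 fall among 13 measured genes, with the scaffolds MAPK8IP3 (1.42) and MAPK8IP1 (0.91) and the AP-1 genes FOS (1.01) and JUND (0.93) leading. Of the upstream list 6 rose and 9 fell, among them GADD45G (2.41), MAP3K12 (1.44), GADD45B (1.31) and TXN (-1.23). GADD45B thus lay on opposite sides with CC-115 in 22RV1 and with CC-115 added to Enza in C4-2, a difference that was not tested. MEF2C (-1.58), DDIT3 (1.47), MEF2D (1.40) and PTPN7 (1.99) had the same sign in both.

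CC-223 against Ctrl raised 14 and lowered 20 of the 96 other genes (34 in all against 23.9% of all features, and 66 against 42.8% without the libraries that stand apart). The ERK phosphatase gene DUSP5 (-1.83), PTPN7 (1.61), CDC25B (-1.05) and MAP3K12 (0.87) changed most in their lists. Enza against Ctrl raised 12 and lowered 11 of the 96 against 16.1% (31 called against 21.4% without those libraries), with DUSP5 (1.60), DUSP4 (-1.57), PAK1 (1.29), GADD45G (1.10) and RPS6KA3 (-1.06) changing most. GADD45G was at 0.56 without those libraries and still called. NU7441 against Ctrl changed 1 of the 96, the mitotic phosphatase CDC25B (-0.48), against 3.39% of all features, and 23 (11 higher and 12 lower) against 21.7% without those libraries. With NU7441 added to Enza edgeR called 0 of the 96 against 0.381% of all features, and DESeq2 called 4 (300 of 16785 features). An unadjusted edgeR p under 0.05 was found for 25 of the 96 and for 3573 of all 22860 features.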

How the data were processed

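The authors deposited 2 tables of raw counts, 1 per cell line, over the same 63677 Ensembl features. The submitters' processing notes name STAR 2.5.2a, featureCounts 1.5.0-p3, DESeq2 1.14.1 and the build hg19. What annotation release, strand setting and treatment of multi-mapping reads went into the counts is not given in the sources used here.

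Sample titles gave the groups. One fit held the 24 libraries of C4-2, another the 5 of 22RV1, and a joint fit of 11 (22RV1 with Ctrl and CC-115 of C4-2) gave the difference between lines, with 22860, 19392 and 22922 features after filterByExpr. Counts were scaled by TMM and tested with edgeR 4.0.16 (quasi-likelihood F-test, robust, R 4.3.3, limma 3.58.1), with Benjamini-Hochberg adjustment over all features of a comparison and calls at an adjusted p under 0.05. The SE is the absolute log2 fold change over the square root of F. The 95% intervals are normal intervals from this SE, so they are too narrow for a fit with few libraries such as that of 22RV1. For MAP2K6 with CC-115 in C4-2, at 7 to 19 reads, this SE is too narrow and is left out of the text. The method was tested on simulated data. At total counts of 29.58 M to 44.91 M per library, replicate spread averaged over features exceeded that of counting alone (lowest chi-square per degree of freedom between replicates 3.61). That average does not speak for genes with few reads, such as MAP2K6 with CC-115 in C4-2. Alternatives were DESeq2 1.42.0, median-of-ratios size factors, no filter, a filter at 1 CPM, removal of small and mitochondrial RNA, a replicate block, only the groups compared, and libraries left out. A depth term for 22RV1 was added after seeing the data.

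The 10 genes and the lists of other genes were chosen with earlier results of these data known. The text names the 10 genes and the rest of the MAP2K family whatever their values, up to 4 called genes with the largest change in each list and comparison, and the 5 genes most like MAP2K6. A table of Ensembl IDs and gene symbols named 52181 of the features. Gene types came from a GENCODE annotation and start regions from RefSeq (GRCh38.p14). Python 3.11.15, pandas 2.3.3, numpy 2.4.6 and matplotlib 3.10.9 were used.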

Additional observations from a re-analysis of the deposited data

Results flagged for a closer look

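The effect of CC-115 differed between the 2 cell lines, by the test of the difference itself, for 6 of the 9 genes beside MAP2K6. The same test called 27.5% of all 22922 features. As 22RV1 minus C4-2 on the log2 scale the differences were 1.68 for DUSP1, 1.15 for MAPKAPK3, 0.89 for MAP2K3, 0.66 for MAPK11, 0.50 for MAPK12 and -0.92 for MAP3K5. For MAP2K6 the difference was 3.95, a description because the C4-2 side chose the gene. DUSP1 and MAPKAPK3 lay above control with CC-115 in 22RV1 and below it in C4-2. Without 22RV1 CC-115 replicate 2, MAP2K3 (0.65), MAPK11 (0.39) and MAPK12 (0.22) were no longer called. The MAPK12 call was also lost without 22RV1 Control replicate 2, C4-2 CC-115 replicate 1 or 3, or C4-2 Ctrl replicate 2. Each line has its own count table and its own control libraries, so that line and sequencing experiment cannot be told apart.

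The effect of CC-115 on MAPK13 with Enza differed from that without Enza by -0.83. Enza 1 was the highest of its group and CC-115+Enza 1 the lowest of its group for this gene, and the difference was -0.39 without them.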

How the results depend on the processing

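Counts of the 10 genes called are given for the settings that moved them by more than 1.5 times. Brackets hold the features called over the whole comparison. With only the groups compared in the fit, the 10-gene counts against Ctrl were 3 for NU7441 (2706 of 19569 features) and 8 for CC-223 (9382 of 19738). For Enza against Ctrl the count was 1 (1053 of 19635), and for CC-115+Enza against Enza 5 (8115 of 20628). It was 3 for NU7441+Enza against NU7441 (2759 of 20050) and 1 for CC-115+Enza against CC-115 (1908 of 20770). It was 5 for CC-223+Enza against CC-223 (7456 of 20450), and 0 (166 of 21899) and 1 (92 of 21322) for the interactions of CC-115 and CC-223 with Enza. Without Enza 1 and CC-115+Enza 1 the 10-gene counts against Ctrl were 3 for NU7441 (21.7% of all features) and 8 for CC-223 (42.8%). Against Enza they were 1 for NU7441+Enza (2.59%) and 7 for CC-223+Enza (36.3%). They were 3 for NU7441+Enza against NU7441 (15.7%), 5 for CC-223+Enza against CC-223 (26.6%), and 2 (6.17%) and 2 (1.92%) for the same interactions. The replicate block gave 0 for NU7441 (571 of 22860) and 3 for Enza (3165 of 22860) against Ctrl. For NU7441+Enza against NU7441 the count was 0 with no filter (1303 of 44844). It was 2 with the stricter filter (1480 of 16654) or with small and mitochondrial RNA removed (1463 of 22149). The CC-223 interaction counted 1 by DESeq2 (176 of 17636) and 1 with the stricter filter (134 of 16654). Replicate numbers did not pair the libraries (1 of 29 group pairs with every correlation over 0.1, from -0.7 to 0.64), and 4 of 24 C4-2 libraries were closest to their own number.

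Direction changed for MAPK12 and MAPK11. With 1 library left out, MAPK12 ranged from -0.28 to 0.33 in CC-115+Enza and from -0.28 to 0.38 in CC-223+Enza against Enza, and the highest values were those without Enza 1. Without Enza 1 and CC-115+Enza 1, MAPK12 went to 0.27 in NU7441+Enza, 0.32 in CC-115+Enza and 0.37 in CC-223+Enza against Enza, and MAPK11 to 0.02 in CC-115+Enza and 0.34 in CC-223+Enza against Enza. These follow from the Enza 1 values given above.

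With 1 library left out, counts ranged from 4 to 6 in 22RV1, 4 to 8 for the difference between lines, 4 to 6 for CC-115, 0 to 1 for NU7441 and 2 to 7 for Enza against Ctrl, and stayed at 4 for CC-223. They ranged from 6 to 8 for CC-115+Enza, 3 to 7 for CC-223+Enza and 0 to 0 for NU7441+Enza against Enza. Against the inhibitor alone they ranged from 0 to 4 for CC-115+Enza, 0 to 0 for NU7441+Enza and 3 to 3 for CC-223+Enza, and against NU7441+Enza and CC-223+Enza from 5 to 5 and 6 to 7 for CC-115+Enza. The interactions ranged from 0 to 2 for CC-115, 0 to 1 for CC-223 and 0 to 0 for NU7441. Of 170 values of single genes, DESeq2 kept the direction and the side of the threshold for 168, size factors for 169, the block for 166 and the stricter filter for 162. Adding the 22RV1 depth term kept all 6 calls of that line. The 7 to 19 reads of MAP2K6 per C4-2 library with CC-115 limit the precision of its fold.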
